A study of Mus musculus with 16 samples.

Results

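The muscle forms of the glycolytic enzymes were followed through 6 groups of gastrocnemius RNA. The 10 genes were Hk2, Gpi1, Pfkm, Aldoa, Tpi1, Gapdh, Pgk1, Pgam2, Eno3 and Ldha. They were chosen by name from the 34650 gene names on the array, and every non-control probe that carried one of these names was used. This gave 23 probes, between 1 and 8 a gene, and each of the 23 gave a signal well above background on all 16 arrays. The mice were male C57BL6 littermates, 8-16 weeks old, that carried either 1 inactive Eif6 allele (Het, Eif6+/-) or none (WT, Eif6+/+). Eif6 encodes an initiation factor that binds the large ribosomal subunit. From each muscle RNA was taken whole (whole muscle), from sucrose gradient fractions with at least 2 ribosomes per mRNA (polysome) and from the fraction with a single ribosome (monosome). Whole muscle and polysome RNA were each profiled in 3 WT and 3 Het mice, and monosome RNA in 2 WT and 2 Het mice, on 1-colour (Cy3) Agilent arrays. The sources used here name no Cre or conditional allele for these mice, so cells of the muscle other than fibres are taken to carry the allele too.

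Glycolysis splits glucose into pyruvate in the cytosol and yields ATP without oxygen. Fast fibres, which make up most of the mouse gastrocnemius, depend on it during short, intense contraction, and their glycolytic enzymes are among the most abundant soluble proteins of the cell. Hk2 traps glucose as glucose 6-phosphate, Gpi1 isomerizes it to fructose 6-phosphate, and Pfkm makes the committed step to fructose 1,6-bisphosphate. Aldoa splits that sugar, and Tpi1 interconverts the triose phosphates that result. Further down the pathway Gapdh reduces NAD, Pgk1 makes the first ATP, Pgam2 moves the phosphate group, and Eno3 forms phosphoenolpyruvate. Ldha turns pyruvate into lactate and so restores NAD.

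Gapdh had the most probes, and the results below turn on where along the transcript a probe lies. The probes are 60 bases long, and each is named here by the base at which it starts in its target transcript, as the array design gives it. The probes with the largest changes are shown first, for each gene in the order of their start, with mm9 positions of the design. Capitals are not used in them because no single base stands out.
Gapdh 346, chr6:125113312-125113371, minus strand: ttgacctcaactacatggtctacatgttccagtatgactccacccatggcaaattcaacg
Gapdh 429, chr6:125113229-125113288, minus strand: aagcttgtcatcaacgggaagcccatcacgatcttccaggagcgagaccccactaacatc
Gapdh 581, chr6:125112979-125113038, minus strand: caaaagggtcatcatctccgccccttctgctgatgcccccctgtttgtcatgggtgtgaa
Gapdh 930, chr6:125112496-125112555, minus strand: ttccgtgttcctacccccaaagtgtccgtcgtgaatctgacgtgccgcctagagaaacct
Ldha 970, chr7:54107294-54107353, plus strand: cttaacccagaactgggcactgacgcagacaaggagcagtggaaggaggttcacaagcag
Tpi1 634, chr6:124761923-124761982, minus strand: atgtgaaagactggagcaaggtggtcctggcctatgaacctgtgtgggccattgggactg

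Of Gapdh 1087 the design places only 19 bases on the genome. The 3 Gapdh probes nearest to the 3′ end are close copies of each other. Gapdh 1365 lies at chr6:125111869-125111928 (minus strand). Gapdh 1354 was placed by the design at chr7:30640463-30640523, and Gapdh 554, whose start is counted on another cDNA entry, at chr7:59003199-59003257. They differ at 5 of the 44 bases that they have in common, and 3 of these positions, in capitals, fall in the 30 bases shown.
Gapdh 1365: gggagccctAcctaCtctCttgaataccat
Gapdh 1354: gggagccctCcctaTtctTttgaataccat
Gapdh 554: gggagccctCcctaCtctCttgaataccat
The mouse genome holds many processed copies of Gapdh, so the signal of these 3 probes cannot be assigned to 1 locus. In the same way the 3 Gpi1 probes (starts 1995, 1999 and 2000) lie on 1 site of chromosome 7 and differ at 2 of 55 common bases, shown in capitals.
Gpi1 1995: tgttgttCtgacctGtatttcacaccccag
Gpi1 1999: tgttgttCtgacctTtatttcacaccccag
Gpi1 2000: tgttgttTtgacctGtatttcacaccccag
The files do not say whether a probe lies in a coding or an untranslated part of an exon.

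Array brightness, the 75th percentile of the processed signal, ran from 12.7 to 150 and was not balanced between the groups. It was 33.0, 13.5 and 19.1 for Het whole muscle and 42.3 to 150 for WT whole muscle, whereas Het polysome arrays (63.1 to 106) were brighter than the whole-muscle arrays of the same mice. WT polysome 2 and WT monosome 2 stood apart from the other arrays in the signal along transcripts. The 6 muscle markers (Ckm, Acta1, Mb, Des, Ttn and Neb) were well above background on each of the 16 arrays. The summed linear signal of the 7 tested blood markers was 87029.8 to 205240 in WT polysomes and 42945 to 58037 in Het polysomes, with no overlap. In whole muscle it was 37985 to 58773 in WT and 50959 to 56992 in Het. The part of blood RNA, of array brightness and of those 2 arrays in the results was not tested except where values are given.

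For each gene the probe with the highest mean signal was taken as its leading probe. The values below are log2 signals after quantile normalization, which gives all arrays the same distribution. With all 16 arrays normalized together, the leading probe of Pgk1 read 13.92, 13.60 and 13.59 in WT whole muscle and 14.02, 14.03 and 13.60 in Het whole muscle. In polysomes it read 13.04, 12.72 and 13.47 in WT and 13.56, 14.29 and 13.73 in Het, and in monosomes 12.92 and 12.23 in WT and 12.59 and 12.51 in Het. The group means of Pgk1 were lowest in monosomes, although WT monosome and WT polysome values overlapped, and its polysome values did not overlap between the genotypes. Tpi1 (leading probe 1204) had a different order. Polysomes had the highest means, 15.70 ± 0.16 for WT and 15.62 ± 0.14 for Het (± SD of 3 mice), above 14.92 ± 0.21 in WT and 15.14 ± 0.22 in Het whole muscle. Its monosome mean was 15.36 ± 0.61 in WT and 14.90 ± 0.09 in Het (n = 2 each), so that monosome and whole-muscle levels did not differ beyond their spread. Pfkm followed the order of Tpi1, at 15.21 ± 0.48 and 15.21 ± 0.13 in WT and Het polysomes against 14.60 ± 0.23 and 14.67 ± 0.14 in whole muscle. Hk2 had the widest spread of the 10. Its lowest values were 8.96 on WT polysome 2 and 7.17 on WT monosome 2, the arrays that stood apart, and its other 14 arrays lay between 9.30 and 10.72.

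**Figure D1:**
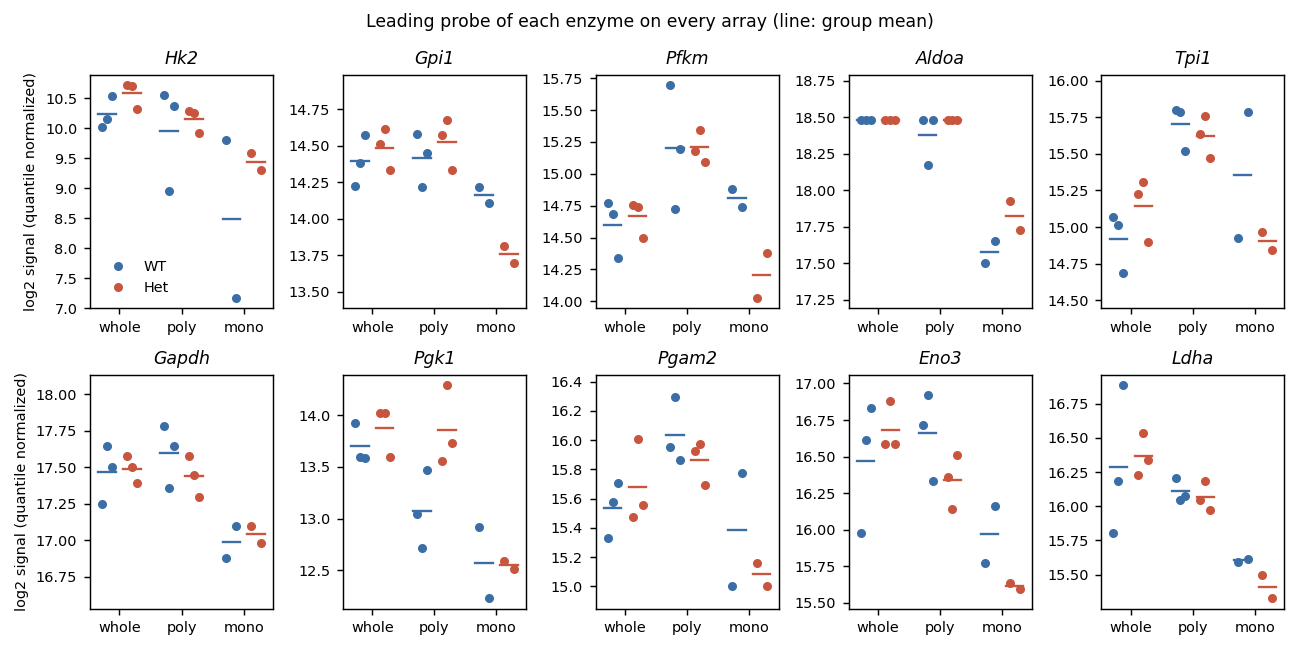
Log2 signal (quantile normalized over 16 arrays) of the leading probe of each of the 10 enzymes, by RNA kind, with 1 point per array in blue for WT and red for Het and a line at the group mean. The Het monosome mean is the lowest or second lowest for each enzyme, and only Pgk1 has polysome points that do not overlap between the genotypes. Aldoa sits at the top value of the normalized scale on nearly all whole-muscle and polysome arrays.

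The first comparison asked whether whole-muscle mRNA of the enzymes differed between Het and WT mice. None of the 23 probes passed a limma adjusted p of 0.05, where 0.0101% of 19806 tested probes did, and none had an unadjusted p under 0.05, against 8.46% of all tested probes. The latter count depended on the scaling: with arrays scaled to the 75th percentile it was 4 (Aldoa, Gapdh 554 and 1365 and Eno3, all higher in Het), beside 8.3% of all probes, and in the authors' normalized table it was 2, beside 7.11%. No probe passed the threshold of the study's methods, a log2 difference over 1 with an unadjusted p under 0.05, which 5.63% of all probes passed. The leading probes lay between 0 (Aldoa) and 0.34 (Hk2), with a median of 0.12 against -0.030 over all tested probes. Their median was 0.44 with arrays scaled to the 75th percentile and -0.12 in the authors' normalized table, so its direction was not settled. The value of 0 for Aldoa follows from the normalization. Its probe was the brightest on 11 of 12 arrays and there received the same top value. Scaled to the 75th percentile, Aldoa differed by 0.92 (limma adjusted p = 0.476).

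Several probes that start far from the 3′ end were lower in Het whole muscle, without passing the adjusted test. Gapdh 346 read 13.98, 13.11 and 12.82 in WT and 12.01, 12.23 and 12.52 in Het, with arrays of whole muscle and polysomes normalized together. All 3 Het values were below all WT values, and the difference was -1.05 (SE 0.60, limma adjusted p = 0.675, exact permutation p = 0.1, the smallest that 3 against 3 can give). In all, 6 of the 23 probes had groups that did not overlap, all lower in Het: Gapdh 346, 429, 581 and 930, Ldha 970 and Tpi1 634. Over all tested probes 13.6% did not overlap. Of the 6 muscle markers 5 were lower in Het whole muscle (median -0.36), while 6 of 10 fast-fibre and 6 of 8 slow-fibre markers were higher. None of these markers passed the adjusted p. The summed signal of the muscle markers was 217607 to 343651 in WT and 179121 to 194769 in Het, and their part was not tested.

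In polysomes again none of the 23 probes passed the adjusted p, and 0% of all tested probes did. At an unadjusted p under 0.05 there were 8 member probes, of Gapdh (346, 429, 930, 1087 and 1354), Pgk1 (1336 and 1426) and Ldha (970), all higher in Het, beside 15.2% of all probes. By the study's threshold with the p of limma there were 3 (Gapdh 346 and 429 and Ldha 970), beside 5.74% of all probes. With the methods' t-test there were 0, beside 2.17%. Without mouse Het 2 both limma counts were 0, beside 6.48% and 3.03% of all probes. Without Het 3 they were 4 and 0, beside 15.9% and 8.04%, and without WT 1 3 and 0, beside 16.3% and 9.17%. In the authors' table they were 12 and 4, beside 16.5% and 1.35% of all probes. Groups of 8 probes did not overlap, beside 21.8% of all. Pgk1, the enzyme of the first ATP-forming step, was the only leading probe among them. Its polysome signal was 13.33, 12.99 and 13.75 in WT and 13.85, 14.61 and 14.02 in Het on the scale of the 12 arrays, which differ by 0.80 (SE 0.28, adjusted p of limma = 0.270, exact permutation p = 0.1). The second Pgk1 probe, which covers almost the same bases, gave 0.71 (SE 0.27, adjusted p = 0.283). The other 9 leading probes lay between -0.29 (Eno3) and 0.19 (Hk2), and the median of the 10 was -0.011 against 0.048 over all probes. It was 0.13 with 75th percentile scaling, 0.11 in the authors' table and 0.19 with all probes of a gene averaged, so its direction was not settled. Blood markers were lower in Het polysomes, as given above: 7 of the 7 tested genes were lower, with a median difference of -1.14. Immune markers were lower too, 9 of 9 tested genes with a median of -0.91, while in whole muscle 8 of 9 were lower (median -0.95). Higher in Het polysomes were 5 of 6 muscle markers (median 0.43), 8 of 10 fast-fibre markers (median 0.27) and 8 of 8 slow-fibre markers (median 0.19). No marker of these 5 lists passed the adjusted p. Their part in the polysome values was not tested.

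The third comparison asked about loading, by which is meant how far the log2 signal of a mouse's polysomes lay above that of its whole muscle, with arrays of the same replicate number taken as 1 mouse. None of the 23 probes passed the adjusted p (0% of all tested probes did). With limma there were 6 at an unadjusted p under 0.05, beside 16.9% of all, and 3 by the study's threshold, beside 13.9% of all. By that threshold the methods' t-test gave 0, beside 8.57%. With array brightness as a term both limma counts were 0, beside 4.07% of all probes for each. Without Het 3 both were 2, beside 11.7% and 11.3%. Without Het 1 both were 3, beside 14.7% and 14.5%, and without Het 2 also 3, beside 11.3% and 10.7%. They were 13 and 9 with the authors' values, beside 17.5% and 4.11% of all probes, and 10 and 5 with normexp background correction, beside 17.4% and 3.62%. In the table of the authors' values 2 member probes passed the adjusted p, Gapdh 1354 and 1365, beside 2.24% of all probes. Groups did not overlap for 8 probes, beside 25.3% of all tested probes, and of these 7 were higher in Het and 1 lower. Among the cell type markers, 6 of 7 of blood were lower (median -1.10) and 5 of 6 of muscle higher (median 0.70) in Het loading, with no marker past the adjusted p, and their part was not tested. The leading probes ranged from -0.47 (Eno3) to 0.61 (Pgk1), with a median of -0.12 against 0.17 over all probes. Their median turned to 0.31 in the authors' table and to 0.13 without mouse WT 1. It was 0.11 with all probes of a gene averaged and 0.088 with the arrays of slide 1 alone. Aldoa differed by 0.10 after quantile normalization and by -1.28 (limma adjusted p = 0.139) with 75th percentile scaling, so that its direction depended on the scaling. Tpi1 1204 was the lower one: its loading was 0.73, 0.76 and 0.88 in WT and 0.42, 0.44 and 0.60 in Het, lower in Het by -0.30 (SE 0.27, adjusted p = 0.577, exact permutation p = 0.1).

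**Figure D2:**
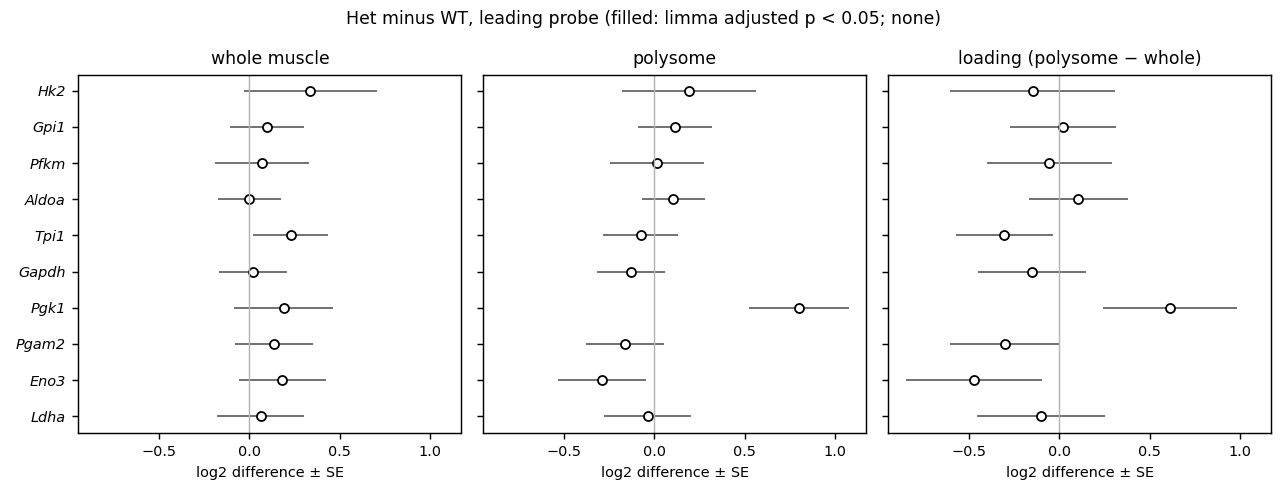
Log2 difference of Het minus WT (± SE of the limma fit) for the leading probe of each enzyme in whole muscle, in polysomes and in loading. All points are open because none passed an adjusted p of 0.05, and Pgk1 has the largest difference in polysomes (0.80) and in loading (0.61) on this scale. Its loading difference was -0.38 with array brightness as a term, and with 75th percentile scaling that of Aldoa was larger in size.

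Probes of the same gene gave different answers, and for Gapdh the loading difference became smaller along the transcript from probe 346 to probe 1087. Gapdh 346 had a loading of -5.07, -1.56 and -2.04 in WT and -0.75, 0.046 and 0.020 in Het. All 3 Het mice were above all 3 WT mice, by 2.66 on average (SE 0.89, limma adjusted p = 0.208, exact permutation p = 0.1). Gapdh 429 gave 2.38 (SE 0.76), Gapdh 581 1.16 (SE 0.60), Gapdh 930 0.99 (SE 0.42), Gapdh 1087 0.84 (SE 0.35), Gapdh 1354 0.70 (SE 0.28) and Gapdh 1365 0.10 (SE 0.31). Gapdh 1354 and 1365 start 11 bases apart and cannot be assigned to 1 locus, so the step between them cannot be read as position. The groups overlapped for Gapdh 1365 alone of these 7, and the adjusted p of the 7 lay between 0.197 and 0.879. Gapdh 554, the brightest Gapdh probe, gave -0.15 (SE 0.30). The 3′ values depended on the scaling: Gapdh 1365 gave 1.06 and Gapdh 1354 gave 1.88 in the authors' table, where both passed, and -0.77 and 0.0020 with 75th percentile scaling, and Gapdh 554 gave 0.80 and -0.93. Gapdh 346 gave 2.52 and 2.43. Over 16 alternatives its difference ran from 1.04 to 3.32. That of Gapdh 581 ran from 0.30 to 1.64, that of Gapdh 930 from 0.017 to 1.66 and that of Gapdh 1087 from 0.023 to 1.85. In whole muscle the probes 346, 429, 581 and 930 had the same order with the opposite sign, at -1.05, -0.81, -0.57 and -0.39. Whole-muscle signal is subtracted in loading, so these values enter the loading differences with their sign reversed, and the orders are not independent.

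Ldha and Tpi1 were the other genes with probes of 1 transcript entry at least 500 bases apart. Ldha 970 had a loading of -2.75, -0.86 and -0.89 in WT and -0.00030, 0.36 and 0.21 in Het, a difference of 1.69 (SE 0.54, limma adjusted p = 0.198). At the 3′ end Ldha 1755 differed by -0.10 (SE 0.35). Ldha 351, which starts nearest to the 5′ end, did not follow that order: it differed by 0.21 (SE 0.64), with WT values of -0.37, 2.26 and 0.48. Tpi1 634 had loadings of -2.56, -0.032 and -0.89 in WT and -0.11, 0.34 and 0.74 in Het, a difference of 1.48 (SE 0.64, limma adjusted p = 0.305), against -0.30 for Tpi1 1204.

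**Figure D3:**
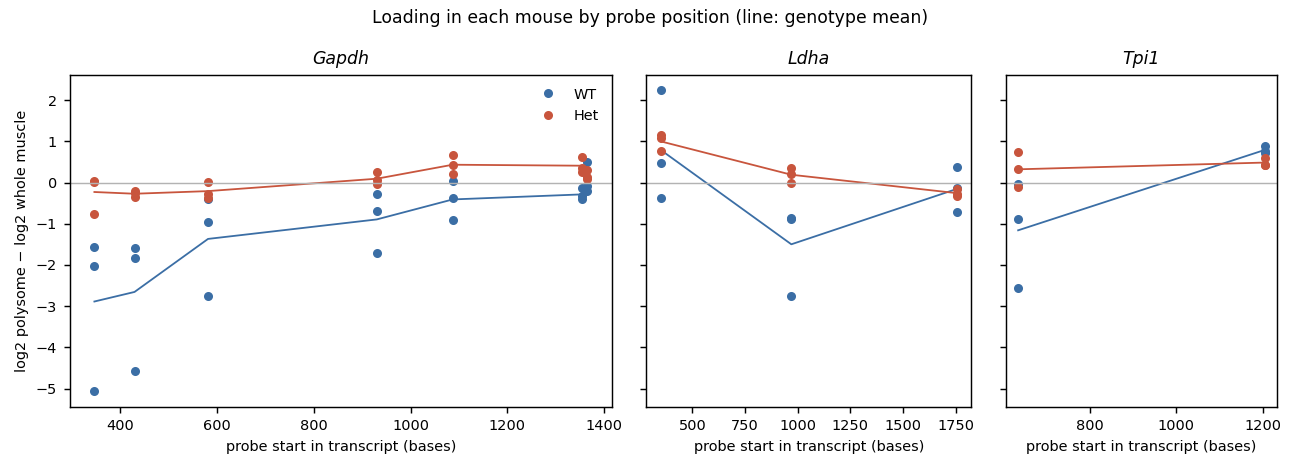
Loading (log2 polysome minus log2 whole muscle) in each mouse against the start of the probe in its transcript, in bases, for Gapdh (without the probe 554 of another entry), Ldha and Tpi1, in blue for WT and red for Het with a line through the genotype means. The genotypes are apart at the 5′ probes of Gapdh (-2.89 in WT and -0.23 in Het at 346) and overlap at 1365, on this quantile normalized scale.

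Because probes differ in how brightly they bind, the level of one probe cannot be set against that of another, but their difference can be followed from array to array. For Gapdh the 3′ probe was 1365, whose signal cannot be assigned to 1 locus. For Gapdh 346 minus 1365, on the scale of the 12 arrays, whole muscle gave -4.27 ± 0.55 in WT and -5.24 ± 0.36 in Het, with no overlap (SD, n = 3 each, exact permutation p = 0.1). Polysomes gave -7.23 ± 1.40 in WT and -5.64 ± 0.88 in Het, with overlap (exact permutation p = 0.2). The step from whole muscle to polysomes was therefore -2.96 ± 1.85 for WT and -0.40 ± 0.57 for Het, 2.56 apart (exact permutation p = 0.1). For Ldha 970 minus 1755 this difference was 1.79, and for Tpi1 634 minus 1204 it was 1.78, each with no overlap (exact permutation p = 0.1). For Ldha 351 minus 1755 it was 0.31 with overlap (exact permutation p = 0.8). There were 9 such pairs tested, and the smallest p for any of them is 0.1, so none can pass 0.05 before or after adjustment. Of the 9 pairs, 7 had genotypes that did not overlap in loading, but they share probes, come from 3 genes and include probes that lie close together. By the outermost pair of each gene, 2 of 3 did not overlap (Gapdh and Tpi1, not Ldha). Among 1180 other transcripts with end probes at least 500 bases apart 21.5% did not overlap.

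Mouse WT 1 had the lowest 5′ minus 3′ value, at -4.99 for the Gapdh pair in loading against -1.36 for WT 2 and -2.53 for WT 3. Without it the Het minus WT difference of that pair was 1.54, and without WT 2, the mouse of both arrays that stood apart, it was 3.36. Ldha 970 minus 1755 gave 0.90 and 2.09, and Tpi1 634 minus 1204 gave 1.12 and 2.36, in the same order. With array brightness as a term in the fit, the loading difference of Gapdh 346 fell from 2.66 to 1.04 and that of Ldha 970 from 1.69 to 0.65. With slide as a term they were 2.31 and 1.49.

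The other transcripts on the array showed no settled direction. Over the 1180 transcripts, the median 5′ minus 3′ loading was 0.060 ± 0.041 for Het mice and 0.32 ± 0.85 for WT mice (± SD of 3), and thus -0.27 apart (exact permutation p = 1), with all 3 Het mice inside the range of WT (-0.32 to 1.28). It was -0.59 without mouse WT 1 and 0.21 without mouse WT 2. The median 5′ minus 3′ signal was between -1.35 and -0.79 on 14 arrays. WT polysome 2 (0.59) and WT monosome 2 (0.80) were the other 2. The difference moved with brightness. In 4 groups of 295 transcripts, ordered by the signal of the 3′ probe, the median was -0.73 in the dimmest, then -0.35 and -0.15, and 0.22 in the brightest. Only 6 other transcripts had a 3′ probe as bright as those of Gapdh, Ldha and Tpi1 (a log2 signal of at least 15.72), and all 6 had a Het minus WT difference above 0, from 0.32 (Myh8) to 2.16 (Gm5069). This brightness split was chosen after the values were seen. The ratio of 3′ to 5′ Gapdh signal is in common use as a readout of RNA integrity, and the part of integrity in the position pattern was not tested.

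**Figure D4:**
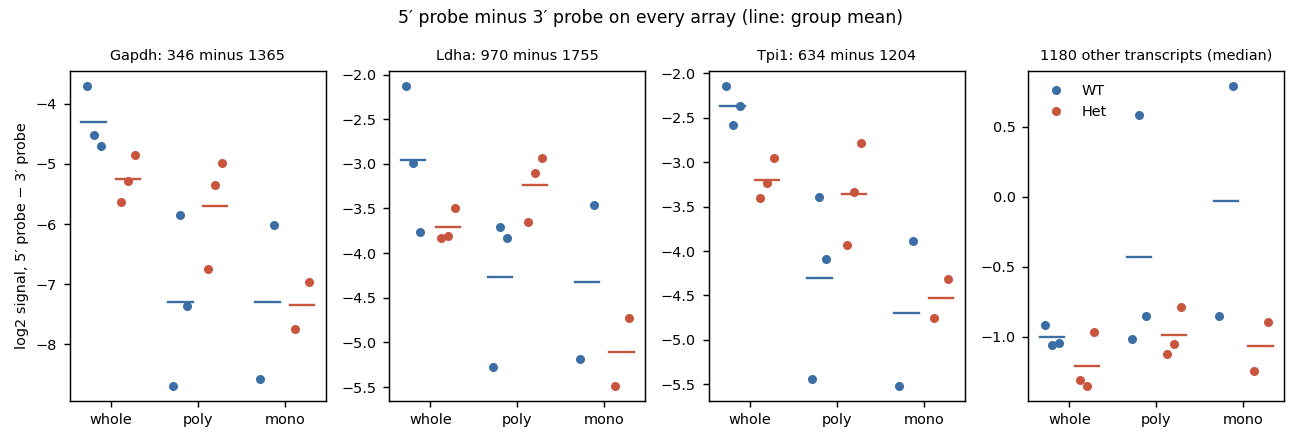
Difference in log2 signal between the 5′ and the 3′ probe (5′ less 3′), 1 point per array, for Gapdh, Ldha and Tpi1, and the median over 1180 other transcripts, by RNA kind, in blue for WT and red for Het with a line at the group mean. WT polysome and monosome arrays reach the lowest Gapdh values (-8.69 and -8.57), while the 2 arrays above 0 in the right panel are WT polysome 2 and WT monosome 2.

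Within each genotype, polysome and whole-muscle RNA of the same mice were then compared. In WT, 4 of 23 probes passed the adjusted p, beside 21% of all tested probes. Of these, 1 was higher in polysomes, beside 10.4% of all probes, and 3 were lower, beside 10.7%. The higher one was Tpi1 1204, by 0.79 (SE 0.19, limma adjusted p = 0.0301), in all 3 mice. The lower ones were Gapdh 346 by -2.89 (SE 0.63, adjusted p = 0.0235), Gapdh 429 by -2.66 (SE 0.54, adjusted p = 0.0203) and Ldha 970 by -1.50 (SE 0.38, adjusted p = 0.0350), the probes of the position pattern. In Het none of the 23 probes passed (7.33% of all probes did), and 1 had an unadjusted p under 0.05, Tpi1 1204, beside 29.2% of all. It was higher in Het polysomes by 0.48 (SE 0.19, adjusted p = 0.146) and Pfkm by 0.57 (SE 0.24, adjusted p = 0.173). The median of the leading probes was 0.067 in WT and -0.011 in Het, against 0.038 and 0.13 over all probes. In the authors' table these medians were -0.34 and 0.10. The WT count depended on single mice: it was 0 without WT 3 and 7 without WT 2, beside 3.88% and 17.3% of all probes. It was 2 without WT 1 or any 1 of the Het mice, beside 7.97% to 16.2%. With brightness as a term it was 0, beside 0%. Blood (3 of 7, median 1.26) and adipocyte markers (3 of 6, median 0.99) were higher in WT polysomes by the same test, and 2 of 6 muscle and 3 of 10 fast-fibre markers were lower. Of 8 slow-fibre markers 3 were higher and 1 was lower (median 0.23), and 2 of 9 immune markers were higher (median 0.021). Their part was not tested. Whether the genotypes differ is tested by the loading comparison above.

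The comparisons with monosomes gave the most calls among the enzymes. Compared with whole muscle, with both genotypes averaged, 15 of the 23 probes fell, from 8 of the 10 genes, and none rose. Over all tested probes 24.9% passed in either direction and 14.2% were lower. Among the leading probes, Hk2 fell by 1.45 (SE 0.44, limma adjusted p = 0.0332) and Pgk1 by 1.23 (SE 0.23, adjusted p = 0.00398) on the log2 scale. Hk2 read 7.17 on WT monosome 2 and 9.80 on WT monosome 1, and without mouse WT 2 it differed by -0.81. Ldha fell by 0.82 (SE 0.21), Eno3 by 0.79 (SE 0.21) and Aldoa by 0.78 (SE 0.16). Aldoa differed by -0.54 (adjusted p = 0.130) with 75th percentile scaling, where it is not held at a top value. Gpi1 passed by its probes 1999 and 2000 but not by its leading probe (-0.48, SE 0.17, adjusted p = 0.0547). Tpi1 1204 (0.098, SE 0.21) and Pfkm (-0.13, SE 0.21) did not pass, and Pgam2 differed by -0.37 (SE 0.21, adjusted p = 0.185). With 75th percentile scaling 18 probes passed, beside 26% of all tested probes. Among them were the leading probes of Gpi1 (-0.84, adjusted p = 0.0164), Pfkm (-0.63, adjusted p = 0.0480) and Pgam2 (-1.04, adjusted p = 0.0142). Tpi1 1204 gave -0.50, so its direction depended on the scaling. The median of the 10 leading probes was -0.63 against -0.089 over all probes. Muscle markers moved the same way (4 of 6 fell, none rose, median -1.22) and blood markers the other way (2 of 7 rose, none fell, median 0.64). Of the fibre type markers, 3 of 10 fast (median -0.45) and 2 of 8 slow (median -0.83) fell and none rose. Their part in the fall of the enzymes was not tested.

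Probe position entered here as well. Gapdh 429 fell by 2.98 (SE 0.55) and Gapdh 346 fell by 2.90 (SE 0.56), whereas the 3′ probe Gapdh 1365 differed by -0.36 (SE 0.19, limma adjusted p = 0.168). Ldha 970 fell by 2.20 (SE 0.37), against 0.82 for Ldha 1755, but Ldha 351, the probe nearest to the 5′ end, differed by -0.12 (SE 0.51, adjusted p = 0.871), so Ldha did not follow the order of position. The 5′ minus 3′ signal of Gapdh 346 and 1365 was -8.57 and -6.02 in WT monosomes and -7.74 and -6.96 in Het monosomes, below all 6 whole-muscle arrays (-5.62 to -3.70), on the scale of the 16 arrays. The same transcript end was lower in polysomes of WT, so low 5′ signal was not limited to 1 fraction.

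Polysomes exceeded monosomes for 14 of 23 probes, from 8 genes, and no probe was lower. Over all tested probes 26% passed and 16.9% were higher. The 10 leading probes were all higher in polysomes, from 0.50 (Gapdh 554) to 1.09 (Hk2), with a median of 0.70 against 0.20 over all probes, and 7 of them passed. Among these were Pgk1 (0.91, SE 0.23, limma adjusted p = 0.0138), Aldoa (0.73, SE 0.16, adjusted p = 0.00564), Pgam2 (0.72, SE 0.21, adjusted p = 0.0252), Eno3 (0.71, SE 0.21, adjusted p = 0.0306) and Pfkm (0.70, SE 0.21, adjusted p = 0.0288). Hk2, Tpi1 1204 (0.53, SE 0.21, adjusted p = 0.0689) and Ldha 1755 (0.58, SE 0.21, adjusted p = 0.0556) did not pass. Without mouse WT 2 the difference of Hk2 was 0.69. With 75th percentile scaling 17 probes passed, beside 28.1% of all tested probes. Aldoa (0.28, adjusted p = 0.413) and Gapdh 554 (0.43, adjusted p = 0.185) no longer passed, whereas Tpi1 1204 (adjusted p = 0.0159) and Ldha 1755 (adjusted p = 0.00647) did. By the same test 4 of 6 adipocyte markers (median 1.44), 2 of 6 muscle markers (median 0.89) and 3 of 10 fast-fibre markers (median 0.63) were higher in polysomes and none was lower, and their part was not tested. Both monosome comparisons hold 4 monosome arrays, and both lost their member calls without mouse Het 1, when 1 Het monosome array was left. The share of all tested probes that passed fell as well. Without Het 3, WT 1 or WT 2, the mouse of both arrays that stood apart, a genotype also kept 1 monosome array. Without Het 2 there were 9 and 8 calls, beside 10.3% and 16.8% of all tested probes. Without WT 3 there were 9 and 9, beside 9.96% and 15.4%. With array brightness as a term there were 11 and 3, beside 11.3% and 10%.

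**Figure D5:**
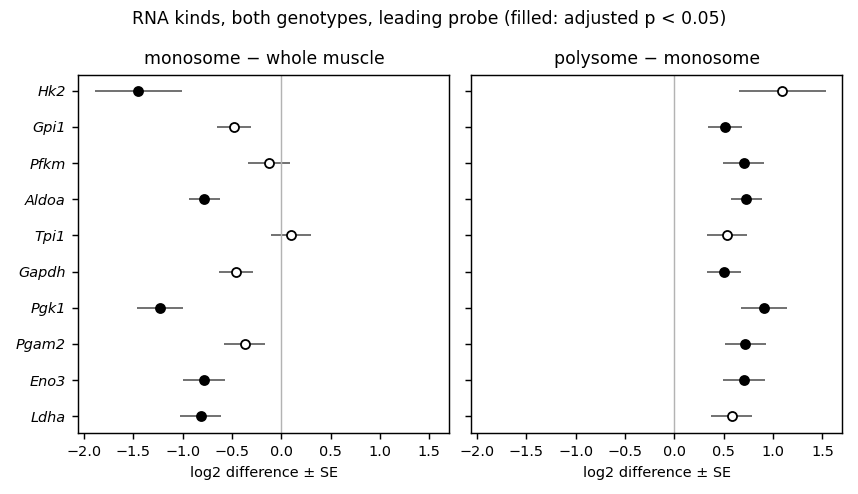
Log2 difference (± SE of the limma fit) of monosome minus whole muscle and of polysome minus monosome, both genotypes averaged, for the leading probe of each enzyme. Filled points passed an adjusted p of 0.05: 5 of 10 on the left, all lower, and 7 of 10 on the right, all higher.

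Between genotypes, monosome RNA of the enzymes did not differ by the test. None of the 23 probes passed the adjusted p, beside 0.499% of all probes, and none had an unadjusted p under 0.05, beside 33% of all. The leading probes lay between -0.61 (Pfkm) and 0.96 (Hk2), with a median of -0.25 against 0.099 over all probes (0.075 in the authors' table). The value of Hk2 rests on WT monosome 2, which read 7.17 against 9.80 for WT monosome 1. Without mouse WT 1, which leaves WT monosome 2 as the only WT monosome array, 10 member probes passed, beside 53.2% of all tested probes.

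The isozymes of other tissues and the genes around the pathway were measured beside the members. Of 19 isozymes listed, 18 were on the array and 11 were tested, and of 18 regulators and branch enzymes 17 and 13. None passed the adjusted p in whole muscle, polysomes, loading or monosomes between genotypes. In polysomes 11 of the 13 regulators were higher in Het, with a median of 0.55, led by Pfkfb3, which makes the activator of phosphofructokinase (1.12, SE 0.29, limma adjusted p = 0.213). The probes of Gapdhs, Pfkl and Aldoc were well above background on 7, 9 and 11 of 16 arrays, so they are counted here but no size of a difference is given for them. Ldhb, the heart form of lactate dehydrogenase, was higher in polysomes than in whole muscle in both genotypes, by 0.998 (SE 0.21, adjusted p = 0.0217) in WT and 1.29 (SE 0.21, adjusted p = 0.0223) in Het. The values for Ldha 1755 were -0.16 and -0.26. Slc16a3, the lactate exporter of fast fibres, was also higher in both, by 1.31 (adjusted p = 0.00947) and 0.97 (adjusted p = 0.0367). Hk1, the hexokinase of most tissues, was lower in WT polysomes by -1.46 (SE 0.27, adjusted p = 0.0165), as was Hif1a, an oxygen-regulated activator of glycolytic genes, by -1.64 (SE 0.31, adjusted p = 0.0177), with a probe well above background on 2 of 3 WT polysome arrays. With array brightness as a term no probe on the array passed in either genotype, so these calls were all lost, and the Het calls were also lost without Het 2, without Het 3 and with the replicate block, where no probe passed in Het.

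Among these genes, 2 of 11 isozymes and 3 of 13 regulators passed in monosomes against whole muscle, beside 24.9% of all tested probes, and of these 5 Gapdhs, not well above background on any whole-muscle array, was higher and the others lower. Fbp2, the muscle fructose bisphosphatase, fell by 2.44 (SE 0.36, limma adjusted p = 0.000985), with a probe well above background on 1 of 2 Het monosome arrays, Mdh1 by 1.29 and Gpd1, which feeds glycerol phosphate, by 1.21, and pyruvate kinase (Pkm) by 0.64 (SE 0.21, adjusted p = 0.0442). In polysomes against monosomes 6 isozymes and 5 regulators passed, beside 26% of all tested probes. Gapdhs was lower and the other 10 were higher, among them Fbp2 by 2.43, Mdh1 by 1.97, Ldhb by 1.64, Gpd1 by 1.50, Pkm by 1.13 and Slc16a3 by 1.09. Of the counterparts of the members, Eno1, Pgam1 and Pfkp passed in none of the 8 comparisons, and Eno2 and Pklr were not well above background on every array of any group.

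The 10 leading probes were last compared with the mean of the other 9 over the 16 arrays, as a description. Pearson's r was 0.92 for Gpi1, 0.88 for Aldoa, 0.86 for Gapdh and 0.78 for Ldha, and it was lowest for Tpi1 (0.22), with Pfkm (0.50) and Hk2 (0.54) next. The mean profile was -0.60 to -0.39 on the 4 monosome arrays and -0.055 to 0.34 on the other 12. Among 15889 other genes the profile was most like that of NAP030161-1 (r = 0.97), Cars (0.96), Smu1 (0.95), Klhl22 (0.95) and Plrg1 (0.95). Without WT polysome 2 and WT monosome 2 the 5 highest were Anapc4 (0.98), Klhl22, Usp14, Gars and NAP030161-1 (0.97 each). The arrays share the same mice and 3 RNA kinds, and so no test was made.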

How the data were processed

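RNA of gastrocnemius was hybridised to 1-colour Agilent arrays. The deposited scanner files hold spot intensity, background-subtracted and detrended by Agilent Feature Extraction (probe design build mm9), and were not normalized between arrays. The authors' deposited table holds log2 values, quantile normalized according to their methods. Here the log2 of the processed signal was taken, spots flagged as non-uniform or outliers were left out, spots of 1 probe were averaged and arrays were quantile normalized, over 12 arrays (whole muscle and polysome) or 16 (with monosome). A probe was tested if, in 1 group or more, each array had it well above background: 19806 of 55681 on 12 arrays and 20244 on 16. Groups came from the sample titles. Tests used limma 3.58.1 in R 4.3.3 (lmFit and eBayes) with adjusted p-values (Benjamini-Hochberg, across the whole set of tested probes) called at 0.05, and exact two-sided permutation over samples. Scripts were checked on simulated data.

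Per the design text each mouse gave all RNA kinds, but no source used here states that the replicate number in a sample name marks the mouse. Polysome and whole-muscle arrays of the same number were taken as 1 mouse on that assumption, and loading is their difference. Their deviations from the group means correlated with r between 0.058 (WT 3) and 0.48, against -0.33 to 0.46 between WT and Het arrays of the same number. WT and Het mice of the same number are different animals. Members, lists and tests were chosen with earlier results of these data known. The rule named all 10 members with all probes, the counterparts in other tissues, list genes with an adjusted p under 0.05 or otherwise the 2 largest differences, and the 5 genes most alike. Some genes of the lists are counted but not reported by name here. Precision is limited by 2 or 3 arrays a group. Quantile normalization holds a probe that is the brightest of its array at 1 top value. In whole tissue, fewer cells of a type and less RNA per cell cannot be told apart.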

Additional observations from a re-analysis of the deposited data

Results flagged for a closer look

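Gapdh 1354 had a loading above 0 in all 3 Het mice (0.25, 0.63 and 0.35) and below 0 in all 3 WT mice (-0.13, -0.41 and -0.32). The difference of 0.70 had a limma adjusted p of 0.282, and it was 0.0020 with arrays scaled to the 75th percentile. The loading of Ldha 970 minus that of Ldha 1755 was above 0 in all 3 Het mice (0.16, 0.64 and 0.53) and below 0 in all 3 WT mice (-3.12, -0.74 and -0.17), a difference of 1.79 (exact permutation p = 0.1). Both were picked because their signs split by genotype, so the split is no test of them. The share of all probes with such a split was not counted. Groups did not overlap in loading for 25.3% of all tested probes and for the end probes of 21.5% of 1180 other transcripts.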

How the results depend on the processing

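Alternatives gave 2438 values for single probes, of which 2071 kept their direction and their side of the threshold, 91 lost a call, 107 gained one, 162 changed sign with no unadjusted p under 0.05 on either side, and 7 reversed. The reversed ones were Gapdh 1365 in whole muscle (0.70) and Aldoa in loading (-1.28) with 75th percentile scaling, and, in the authors' table, Gapdh 554 in polysomes (0.43), loading (0.80), WT polysome minus whole muscle (-0.45) and Het polysome minus whole muscle (0.35) and Gapdh 1365 in WT polysome minus whole muscle (-0.59). The cause was not tested. That table also gave the only 2 calls of a member in loading, Gapdh 1354 (1.88, limma adjusted p = 0.0241) and Gapdh 1365 (1.06, adjusted p = 0.0414).

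For the median of the 10 leading probes, 109 of 120 values stayed within 1 SD of the replicates. With 75th percentile scaling it moved to 0.44 in whole muscle, -0.38 in Het polysome minus whole muscle, -0.94 in monosome minus whole muscle and 1.02 in polysome minus monosome. In the authors' table it was -0.12 in whole muscle, 0.31 in loading, -0.34 in WT polysome minus whole muscle, 0.075 in monosomes between genotypes and -0.97 in monosome minus whole muscle. Averaging all probes of a gene gave 0.19 in polysomes. Leaving out 1 mouse gave 0.022 to 0.19 in whole muscle, -0.073 to 0.081 in polysomes, -0.26 to 0.13 in loading, -0.10 to 0.15 and -0.021 to 0.017 in polysome minus whole muscle of WT and Het, -0.33 to -0.17 in monosomes, -0.68 to -0.56 in monosome minus whole muscle and 0.57 to 0.73 in polysome minus monosome.

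Counts of member calls moved by over 1.5 times for polysome minus whole muscle in WT, from 4 beside 21% of all tested probes. They were 13 in the authors' table and 10 with normexp background, each beside 26.5%. With 75th percentile scaling there were 7, beside 23.3%, and with probes well above background on all arrays 8, beside 39.1%. Without a filter there was 1, beside 3.16%, and with slide as a term 2, beside 12.2%. Without the pairing by mouse there were 6, beside 17.1%. In loading 7 member probes then had an unadjusted p under 0.05 in place of 6, beside 13.4% in place of 16.9%. None of them passed the adjusted p. The WT count was 2, beside 7.58%, with the replicate number as a further block. The replicate block gave 16 calls in monosome minus whole muscle and 18 in polysome minus monosome, beside 32% and 34.5%. Mouse as a random block gave 18 and 20, beside 35.8% and 37.9%. The loading median was -0.12 with and without the replicate block. The methods' t-test found 4, 3 and 3 member probes at an unadjusted p under 0.05 in whole muscle, polysomes and loading, beside 6.25%, 8.95% and 13.8% of all tested probes, and none after Benjamini-Hochberg adjustment. At the study's threshold it found 1, 0 and 0, beside 2.08%, 2.17% and 8.57%. In Het polysome minus whole muscle there was no call in general, but 1 with normexp background and 1 without WT replicate 2, beside 14.8% and 16.2% of all tested probes. In the authors' table there were 2, beside 14.4%. Without Het 2 or WT 3, each genotype kept 2 monosome arrays. Monosomes between genotypes then had no member call. Monosome minus whole muscle had 9 and 9 calls and polysome minus monosome 8 and 9, with the shares given above. All members were well above background on each array, and the top value of the scale limits the differences of Aldoa.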
